A study of Mus musculus with 20 samples.

Results

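The 10 genes examined here are active in heat-producing (brown and beige) adipocytes: Ucp1, Cidea, Elovl3, Cox8b, Cox7a1, Cpt1b, Ppargc1a, Prdm16, Dio2 and Nat8l. They were found by gene symbol, and all 10 members had a row among the 48440 genes of the count table. RNA had been sequenced from the gonadal fat pad, a visceral white fat depot, and from the liver. The 4 groups, each of 5 libraries, were WT fat, WT liver, KO fat and KO liver. Fat and liver libraries of a genotype carry the same numbers in their labels, which do not say whether a number marks the same mouse, and comparisons across tissues were made without pairing. KO mice carried the genotype label AdEpsKO, which the sources used here do not expand, and the promoter of any Cre, the deleted part of the gene and the ages of the mice are not stated in them. All groups, WT included, were on a C57BL/6 background, had eaten a high-fat diet over 1 week and were fasted over 6 h before the tissues were taken. Whether the libraries of a group came from separate animals is stated only as 5 mice per group, so p-values measure the spread between these libraries.

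Brown adipocytes, and the beige adipocytes that arise within white fat, burn fuel to make heat. Ucp1, a carrier of the inner mitochondrial membrane, lets protons return to the matrix without making ATP, so that respiration runs as heat. Noradrenaline from sympathetic nerves drives the programme through β-adrenergic receptors and cAMP, and the coactivator Ppargc1a and the regulator Prdm16 act on its transcription. Cold and adrenergic stimuli are known to raise these genes, and gonadal fat of mice is known as a depot with little beige activity.

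Libraries held 12880933 to 17276907 expected counts in fat and 13836370 to 20784145 in liver. Levels are given as counts-per-million (CPM) of the library's total. The adipocyte hormone gene Adipoq stood at 1528 to 4957 CPM in fat and at 0.0 to 4.43 CPM in liver, and the hepatocyte gene Alb at 80387 to 114698 CPM in liver. Zic1 and Lhx8, which mark classical brown fat depots, were at or near 0 in fat, with highest values of 0.116 and 0.0662 CPM, while Ebf2, a factor of brown and beige precursors that white fat also makes, was at 33.2 to 49.5 CPM. Prkce, which encodes protein kinase C epsilon, was lower in KO fat (33.4, 35.3, 23.5, 35.6 and 27.6 CPM in KO 1 to 5) than in WT fat (48.3, 60.2, 37.4, 66.0 and 37.5 CPM in WT 1 to 5) without overlap. Of all genes tested in fat, 1.34% had ranges that did not overlap. The ratio of KO to WT for Prkce in fat was 0.615 (95% interval 0.45 to 0.841), which did not pass adjustment over all genes (edgeR adjusted p = 0.687). In liver Prkce was at 14.1 ± 3.47 CPM in WT and 11.2 ± 2.53 CPM in KO (SD, n = 5 each), a ratio of 0.78 (edgeR adjusted p = 0.417). Some libraries held transcripts of other tissues. Summed over 16 skeletal muscle markers these were at 19.4 to 1266 CPM in fat, highest in WT fat 2 and KO fat 2. Bladder-type epithelial markers reached 1748 CPM in KO fat 2, and WT liver 4 and WT liver 5 held adipocyte transcripts (Adipoq 4.23 and 4.43 CPM).

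Ucp1, Cidea, Elovl3, Cox8b, Cox7a1 and Cpt1b were high or low together across the 10 fat libraries, in both genotypes. KO fat 3 and WT fat 3 were among the 3 libraries with the most of each of the 6 genes, and KO fat 1 and WT fat 5 among the 2 with the least of each except Cox8b, for which WT fat 1 was below WT fat 5. Ppargc1a, Prdm16 and Nat8l varied less than these 6 genes between the same libraries, and Dio2 took an order of its own. In bulk tissue, fewer cells of a type and less RNA per cell cannot be told apart.

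**Figure D1:**
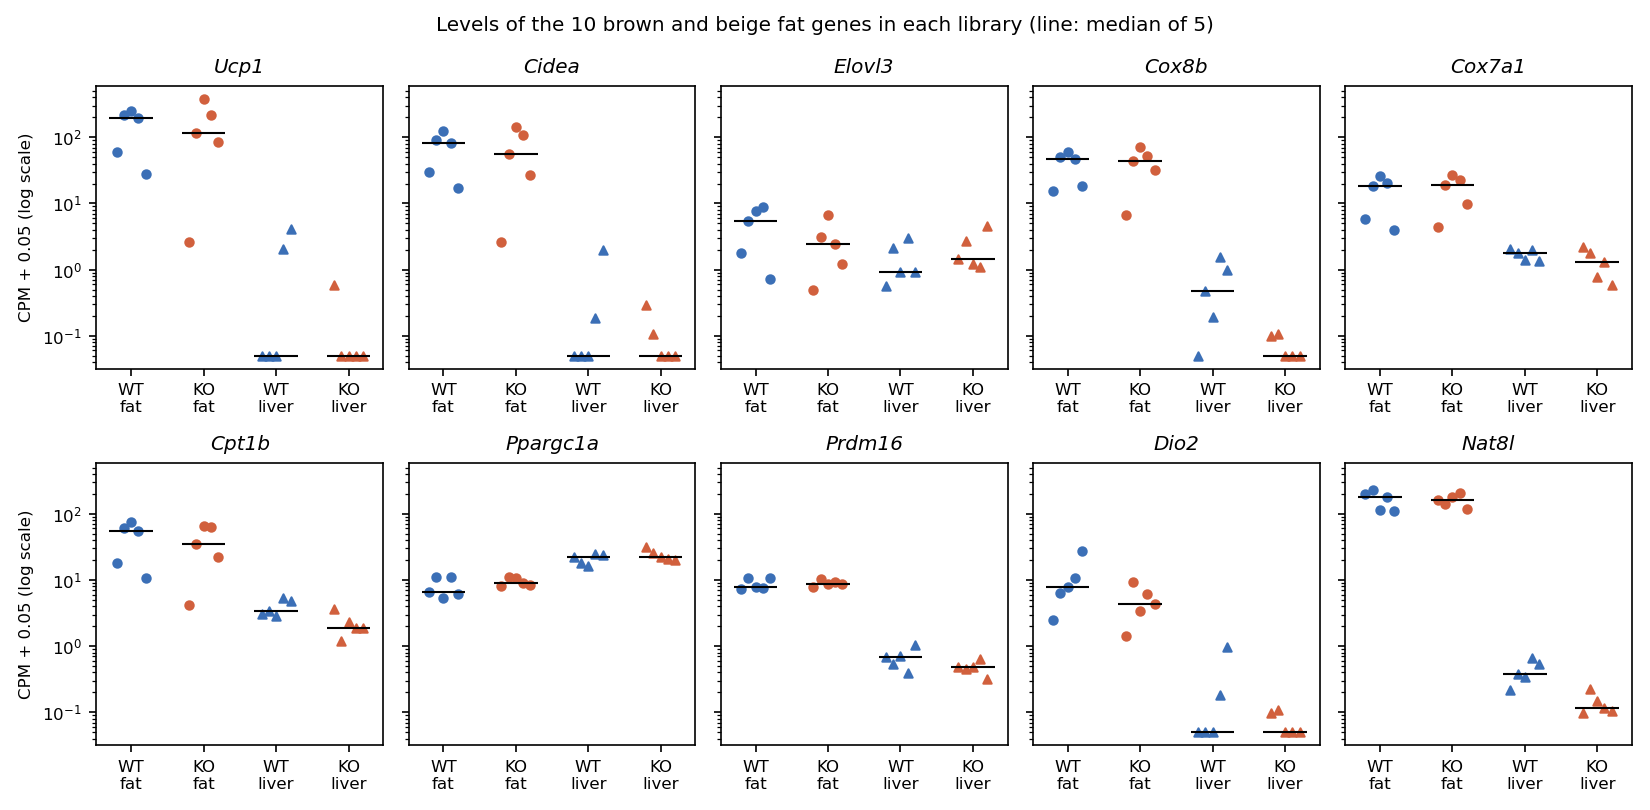
Level of each member in every library, in CPM plus 0.05 on a log scale, for WT and KO fat (circles) and WT and KO liver (triangles); lines are medians of 5 libraries. Ucp1 spans 2.54 to 381 CPM in fat, while Prdm16 spans 7.24 to 10.8 CPM.

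Ucp1 was at 59.0, 219, 246, 196 and 27.9 CPM in WT fat 1 to 5 and at 2.54, 118, 381, 217 and 83.9 CPM in KO fat 1 to 5. The lowest and the highest library were both KO, the WT range lay within the KO range, and the highest exceeded the lowest 150-fold. The count behind the lowest value was 35, and that behind the highest 4902, so counting error is small beside this spread. Cidea, a lipid droplet protein strongly expressed in brown fat, was at 29.5, 90.8, 123, 80.5 and 17.2 CPM in WT fat 1 to 5 and at 2.54, 55.7, 141, 109 and 26.4 CPM in KO fat 1 to 5. Its lowest and highest libraries were those of Ucp1. Elovl3, an elongase of very long chain fatty acids, was much lower, at 1.73, 5.38, 7.6, 8.84 and 0.67 CPM in WT fat and 0.436, 3.02, 6.75, 2.38 and 1.16 CPM in KO fat. WT fat 4 was its highest library, and KO fat 4, which was high for Ucp1, was near the middle for Elovl3.

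Cox8b and Cox7a1 encode forms of cytochrome c oxidase subunits found in heart, skeletal muscle and brown fat. Cox8b was at 15.5, 50.5, 59.9, 47.3 and 18.5 CPM in WT fat 1 to 5 and at 6.61, 44.1, 71.0, 52.7 and 32.4 CPM in KO fat 1 to 5. Cox7a1 was at 5.85, 18.6, 25.8, 20.2 and 3.95 CPM in WT fat and 4.36, 18.7, 26.7, 22.7 and 9.78 CPM in KO fat. Both genes thus had KO fat 3 and WT fat 3 at the top, and their spans of 10.8-fold and 6.76-fold were narrower than that of Ucp1. Cpt1b, the muscle and brown fat form of the enzyme that loads fatty acids for entry into mitochondria, was at 18.2, 60.4, 74.9, 54.0 and 10.6 CPM in WT fat and 4.17, 34.6, 64.2, 63.9 and 21.9 CPM in KO fat. It spanned 18-fold, with KO fat 1 lowest and WT fat 3 highest.

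The sequence before the start site is shown for Ucp1, Cox8b and Cox7a1, which varied together, and for Dio2, which did not follow them. Each is the 250 bases before the RefSeq start (build GRCm38.p6), read 5′ to 3′ on the strand of the gene, and RefSeq entries were matched for 6 of the 10 members. Capitals mark any match, on either strand, to 1 of 6 motifs: the cAMP response element TGACGTCA, its core TGACG, which lies within it, the nuclear receptor half-site AGGTCA, the estrogen-related receptor element TCAAGGTCA, which contains it, the TATA box TATAAA and the GC box GGGCGG. The windows are chr8:83290098-83290347 (plus strand), chr7:140900447-140900696 (minus strand), chr7:30183921-30184170 (plus strand) and chr12:90739039-90739288 (minus strand). In GENCODE M21 (GRCm38) the genes span chr8:83290352-83298452 (Ucp1), chr7:140898945-140900446 (Cox8b), chr7:30184144-30186078 (Cox7a1) and chr12:90724552-90738438 (Dio2). By these spans the last bases of the Cox7a1 window lie within the gene. The other windows lie wholly upstream of the GENCODE start, that of Dio2 farthest from it.
Ucp1: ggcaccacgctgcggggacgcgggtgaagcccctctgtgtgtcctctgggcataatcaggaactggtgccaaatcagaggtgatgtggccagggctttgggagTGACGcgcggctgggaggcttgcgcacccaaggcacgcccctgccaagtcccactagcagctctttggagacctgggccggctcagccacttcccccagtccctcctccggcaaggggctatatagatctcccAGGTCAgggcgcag
Cox8b: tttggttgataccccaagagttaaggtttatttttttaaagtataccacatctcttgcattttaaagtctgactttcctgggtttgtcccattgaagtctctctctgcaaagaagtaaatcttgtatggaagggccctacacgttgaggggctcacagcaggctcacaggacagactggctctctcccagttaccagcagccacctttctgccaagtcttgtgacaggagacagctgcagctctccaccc
Cox7a1: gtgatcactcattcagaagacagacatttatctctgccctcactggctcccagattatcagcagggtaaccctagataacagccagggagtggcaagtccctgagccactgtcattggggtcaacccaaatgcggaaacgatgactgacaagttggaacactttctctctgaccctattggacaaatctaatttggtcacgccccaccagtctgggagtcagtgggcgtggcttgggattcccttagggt
Dio2: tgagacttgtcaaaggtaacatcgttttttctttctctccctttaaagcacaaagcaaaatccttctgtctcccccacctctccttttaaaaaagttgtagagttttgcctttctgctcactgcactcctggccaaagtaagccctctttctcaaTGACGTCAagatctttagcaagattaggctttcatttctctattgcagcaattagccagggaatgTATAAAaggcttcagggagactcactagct

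Counting back from the start, with -1 the last base before it, the Ucp1 window held TGACG at -147 to -143 and AGGTCA at -14 to -9. Dio2 held the full TGACGTCA at -95 to -88 and TATAAA at -30 to -25. No match to the 6 motifs was present in the Cox8b and Cox7a1 windows, so the 3 genes that varied together shared no match. Ppargc1a held 1 TGACG, on the reverse strand at -49 to -45, and Prdm16 held 1 GGGCGG at -220 to -215. Of 32851 windows of this length, 1.55% held TGACGTCA, 17.8% TGACG, 14% AGGTCA, 0.387% TCAAGGTCA, 12.4% TATAAA and 32.7% GGGCGG. These matches describe letters only.

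Across the 10 fat libraries, the log2 CPM of 5 members went with that of Ucp1. Pearson's r with Ucp1 was 0.99 for Cidea (Spearman's rho 0.98; permutation test, adjusted p = 0.00019), 0.97 for Cox8b (rho 0.99; permutation adjusted p = 0.00019) and 0.97 for Cpt1b (rho 0.93; permutation adjusted p = 0.000253). It was 0.86 for Elovl3 (rho 0.83; permutation adjusted p = 0.00095) and 0.86 for Cox7a1 (rho 0.95; permutation adjusted p = 0.00144). The unadjusted permutation p for Cox8b, 1e-05, is the smallest these permutations can give. Adjustment was over the 19 relations computed (9 with Ucp1 and 10 with muscle markers). Without WT fat 5 and KO fat 1, the libraries farthest from the median of Ucp1, r was 0.96 for Cidea, 0.92 for Cox8b, 0.94 for Cpt1b and 0.92 for Cox7a1. For Elovl3 it was 0.77, and its permutation adjusted p was then 0.106, so this relation rests in part on those 2 libraries. The other 4 members showed no detectable relation with Ucp1: r was 0.23 for Ppargc1a, 0.32 for Dio2, 0.13 for Nat8l and 0.01 for Prdm16 (permutation adjusted p = 0.633, 0.454, 0.849 and 0.989), with rho of 0.36, 0.13, 0.04 and -0.05.

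**Figure D2:**
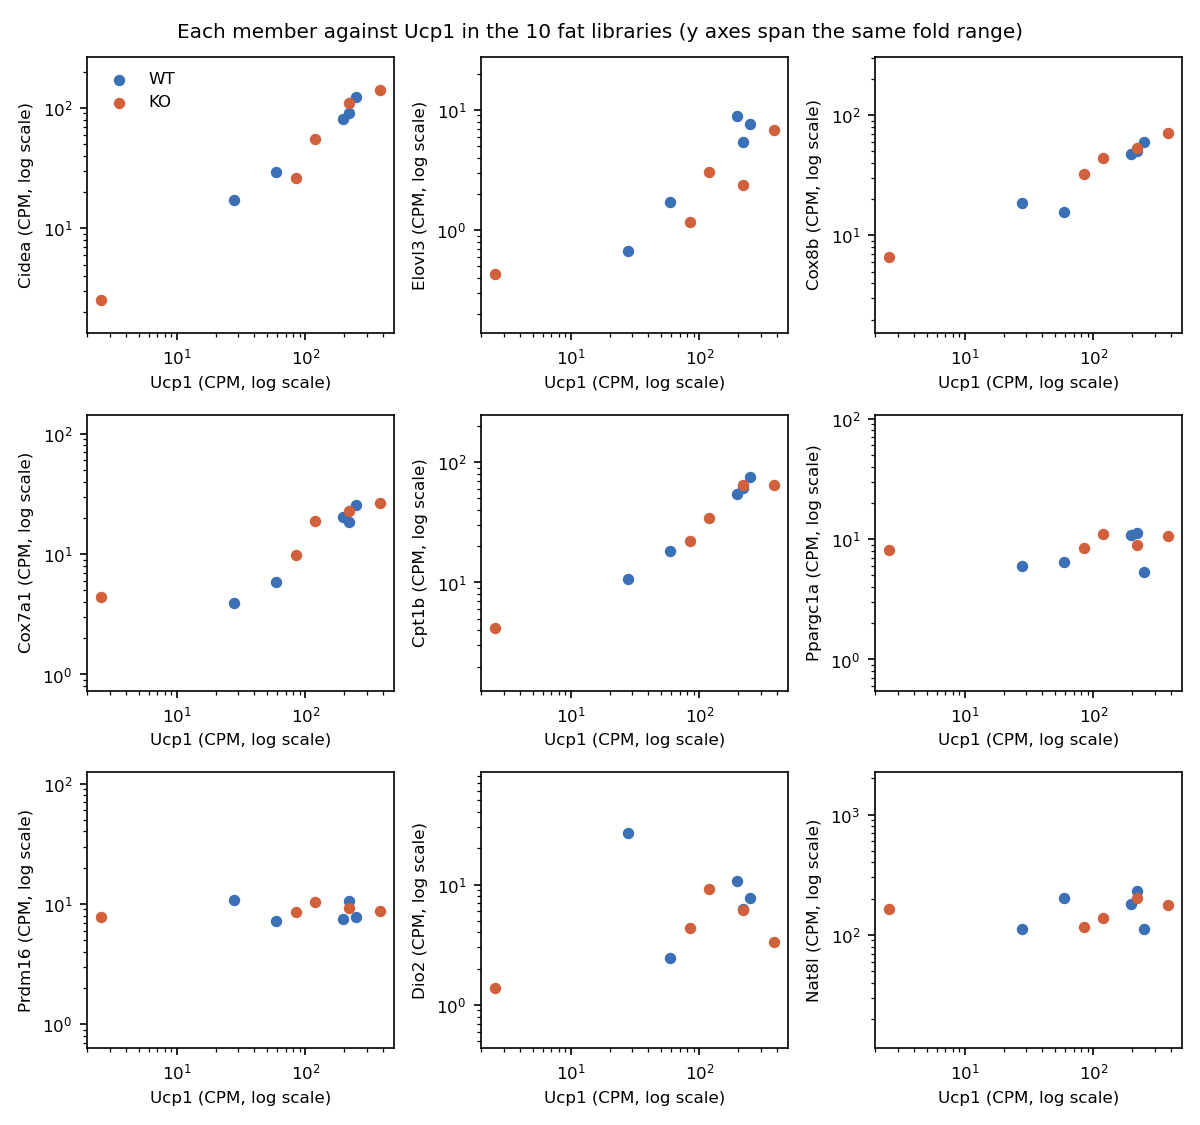
Each of the other 9 members against Ucp1 in the 10 fat libraries (CPM, both axes logarithmic; blue WT, orange KO; all y axes span the same fold range). Cidea, Cox8b and Cpt1b lie along a line (r of 0.99, 0.97 and 0.97) with WT and KO libraries mixed, whereas Prdm16 stays level (r of 0.01).

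The ratios of these genes to Ucp1 were steadier than the genes themselves, except in KO fat 1. Cidea stood at 0.315 to 0.614 of the CPM of Ucp1 in 9 libraries and at 1.0 in KO fat 1. Cox8b stood at 0.187 to 0.662 in those 9 libraries and at 2.6 in KO fat 1, where Ucp1 was lowest. By likeness of log2 CPM over the 10 fat libraries, the 5 genes nearest to Ucp1 among 14141 genes (mean of 1 CPM or more in fat) were Cidea (r = 0.989), Fabp3 (0.975), Cpt1b (0.971), Cox8b (0.965) and P2rx5 (0.937). Fabp3 encodes a fatty acid binding protein of heart, muscle and brown fat, and was at 0.436 CPM in KO fat 1 and 44.1 CPM in WT fat 3. P2rx5, a purinergic receptor used as a surface marker of brown adipocytes, varied less, from 4.14 CPM in KO fat 1 to 11.2 CPM in KO fat 3. Cox7a1 and Elovl3 came at ranks 13 and 14 in likeness to Ucp1, while Dio2 was at rank 2796, Ppargc1a at 3797, Nat8l at 5141 and Prdm16 at 6839. The genes nearest to Cox7a1 were Otop1 (0.968), a proton channel of brown fat, Gk (0.962), which encodes glycerol kinase, and the fatty acid oxidation genes Acaa2 (0.948) and Hadhb (0.943), with Pank1 (0.937). The points share the fat pads and their other cell types, and no p is attached to these ranks.

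Skeletal muscle also uses Cox8b, Cox7a1 and Cpt1b, so muscle transcripts are given beside them. The 16 muscle markers summed to 19.4, 1266, 463, 261 and 141 CPM in WT fat 1 to 5 and to 21.5, 766, 128, 130 and 37.5 CPM in KO fat 1 to 5, with 14 to 16 of 16 markers detected. With the mean log2 CPM of the 15 muscle markers used for relations, Pearson's r was 0.59 for Ucp1, 0.64 for Cidea, 0.66 for Elovl3, 0.69 for Cox8b, 0.67 for Cox7a1 and 0.66 for Cpt1b. The permutation adjusted p lay between 0.0821 and 0.119 for these 6 relations, and Spearman's rho was 0.65, 0.58, 0.68, 0.68, 0.54 and 0.76 in the same order, with a permutation adjusted p of 0.0466 for Cpt1b. Without WT fat 1 and WT fat 2, the libraries farthest from the median of the muscle measure, r was 0.62 to 0.69 for the 6 genes. For Ppargc1a, Prdm16, Dio2 and Nat8l it was 0.33, 0.46, 0.5 and 0.06, with permutation adjusted p of 0.454, 0.267, 0.215 and 0.917. Without WT fat 2 and KO fat 2, the libraries with the most muscle transcripts, r with Ucp1 was 0.99 for Cidea, 0.97 for Cox8b, 0.97 for Cpt1b, 0.85 for Elovl3 and 0.86 for Cox7a1. Without these 2 libraries, r with the muscle markers was 0.64 to 0.74 for the 6 genes. KO fat 1 and WT fat 1 held similar muscle sums (21.5 and 19.4 CPM) with Ucp1 at 2.54 and 59.0 CPM. Among livers, the muscle sum was highest in WT liver 4 (416 CPM), where Ucp1 was at 2.01, Cox8b at 1.48 and Cpt1b at 5.28 CPM. In WT liver 2, the next highest, it was 252 CPM, with Ucp1 and Cidea at 0 counts, Cox8b at 0.431 CPM and Cpt1b at 3.34 CPM. WT liver 5 held 4.0 CPM of Ucp1 with a muscle sum of 1.05 CPM. Macrophage markers (8 of 8 detected in every fat library) summed to 622, 766, 2337, 916 and 1097 CPM in WT fat 1 to 5 and to 529, 486, 1582, 1465 and 609 CPM in KO fat 1 to 5; their part in the members' levels was not tested.

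**Figure D3:**
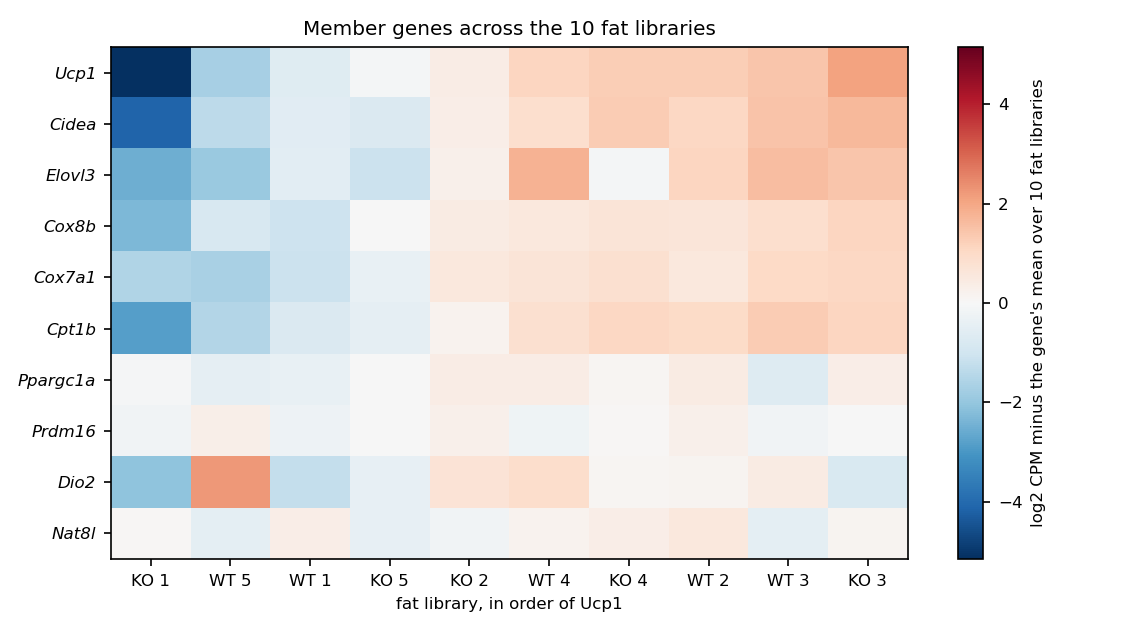
Members (rows) in the 10 fat libraries (columns, ordered by Ucp1), coloured by the difference of log2 CPM from the mean of that gene over the 10 libraries. The upper 6 rows go from low in KO 1 (Ucp1 2.54 CPM) to high in KO 3 (381 CPM), the Ppargc1a, Prdm16 and Nat8l rows stay pale, and Dio2 is highest in WT 5 (26.9 CPM).

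Ppargc1a, the coactivator of mitochondrial biogenesis, was at 6.44, 11.2, 5.31, 10.9 and 6.03 CPM in WT fat 1 to 5 and at 8.13, 11.1, 10.6, 8.94 and 8.38 CPM in KO fat 1 to 5. WT fat 3, next to the highest for Ucp1, held the least Ppargc1a. Prdm16, a zinc finger regulator of brown and beige cell identity, was at 7.24, 10.5, 7.82, 7.57 and 10.8 CPM in WT fat and 7.84, 10.4, 8.77, 9.2 and 8.62 CPM in KO fat. KO fat 1, lowest for Ucp1, was within the range of the other libraries for both regulators. Nat8l makes N-acetylaspartate, an acetyl carrier for lipid synthesis in brown adipocytes, and was at 202, 230, 113, 182 and 111 CPM in WT fat and 164, 139, 177, 203 and 117 CPM in KO fat. It spanned 2.08-fold, and KO fat 1 lay in the middle of the range.

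Dio2, the deiodinase that makes active thyroid hormone within the cell, was at 2.46, 6.31, 7.75, 10.7 and 26.9 CPM in WT fat 1 to 5 and at 1.38, 9.25, 3.34, 6.16 and 4.35 CPM in KO fat 1 to 5. WT fat 5 stood above all others for Dio2, although it was next to the lowest for Ucp1. That library held uterus and oviduct epithelial markers at a summed 131 CPM (8 of 8 detected, Wfdc2 at 25.4 CPM), against 9.38 to 33.9 CPM in the other WT fat libraries. KO fat 2, with 890 CPM of the same markers (7 of 8 detected), held the most Dio2 among KO fat libraries. Its largest values were Krt18 (343 CPM), Krt8 (282 CPM) and Cdh1 (141 CPM), and it also held 1748 CPM of bladder-type markers. The list is not specific, with sums of 170 to 254 CPM in WT liver and 176 to 317 CPM in KO liver. In WT fat 5 its gene Pax8 was highest among fat libraries (3.08 CPM) and Ovgp1 lowest (1.78 CPM). The kind of epithelium in WT fat 5 is therefore not settled, and the part of epithelium in Dio2 was not tested for either library. The gene nearest to Dio2 by likeness was Car2 (r = 0.922), a carbonic anhydrase, which was at 55.3 CPM in WT fat 5 and at 2.39 to 11.2 CPM in the other fat libraries.

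The biological coefficient of variation that edgeR fitted in fat put numbers on this split. It was 0.932 for Ucp1, 0.839 for Cidea, 0.792 for Elovl3, 0.711 for Cpt1b, 0.655 for Dio2, 0.605 for Cox7a1 and 0.577 for Cox8b, against a median of 0.207 over 14707 genes. These 7 genes lay between the 93.8 and the 98.6 percentile of all genes tested. Ppargc1a (0.296), Nat8l (0.276) and Prdm16 (0.216) lay at the 71.3, 67.5 and 52.6 percentile. These percentiles are given as a description.

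Between genotypes, no member was called different in fat. All 10 members passed the filter on low counts, 0 of 10 were called at an adjusted p under 0.05 (edgeR quasi-likelihood test), and the background was 0% of 14707 genes called. At an unadjusted p under 0.05, 7.13% of the genes tested passed and no member did. The CPM ranges of KO and WT overlapped for all 10 members (1.34% of all genes tested had ranges that did not overlap). Ucp1 averaged 149 ± 99.0 CPM in WT fat and 160 ± 145 CPM in KO fat (SD, n = 5 each), a ratio of KO to WT of 1.04. Its 95% interval ran from 0.263 to 4.14, so a difference of several fold in either direction was not detectable against this spread. The intervals of the next 4 were narrower, with ratios of 0.961 (0.283 to 3.25) for Cidea, 0.849 (0.305 to 2.36) for Cpt1b, 1.06 (0.468 to 2.42) for Cox8b and 1.09 (0.462 to 2.57) for Cox7a1. Elovl3 averaged 4.84 ± 3.57 CPM in WT and 2.75 ± 2.46 CPM in KO fat (SD, n = 5 each), a ratio of 0.554 (0.176 to 1.74).

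The steadier members had tighter intervals. For Prdm16 the ratio of KO to WT in fat was 1.01 (0.802 to 1.28), with 8.79 ± 1.72 CPM in WT and 8.97 ± 0.948 CPM in KO (SD, n = 5 each). Nat8l had a ratio of 0.935 (0.645 to 1.36) and Ppargc1a of 1.16 (0.805 to 1.67). Dio2 had the lowest ratio of the members, 0.455 (0.177 to 1.16; edgeR adjusted p = 0.693), from 10.8 ± 9.45 CPM in WT and 4.9 ± 2.99 CPM in KO (SD, n = 5 each). On the log2 scale this was -1.14, and it was -0.48 (adjusted p = 0.987) without WT fat 5, the library with the most Dio2. The adjusted p of the other 9 members lay between 0.819 and 0.993. Leaving out single libraries turned the sign of Ucp1, Cidea, Cox8b, Cox7a1, Cpt1b, Prdm16 and Nat8l, so no direction is given for these.

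**Figure D4:**
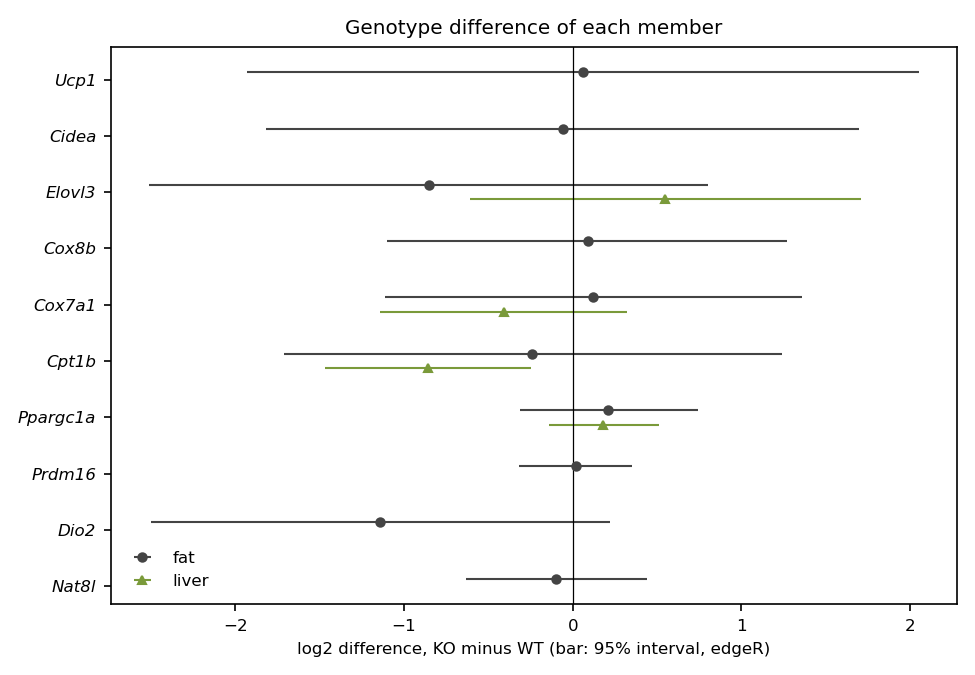
Log2 difference of KO minus WT for each member in fat (circles) and, for the 4 members tested there, in liver (triangles), with 95% intervals from edgeR. All fat intervals include 0; that of Ucp1 reaches from -1.93 to 2.05 and that of Prdm16 from -0.32 to 0.35.

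Of the wider lists of the programme, 0 genes were called between genotypes in fat. The lists had been chosen with earlier results of these data known, and the median log2 difference over all genes tested was 0.0. Of 16 brown fat identity genes, 15 were matched by symbol and 13 were tested, 9 with a positive and 4 with a negative difference (median 0.04). The symbol Gyk was not matched, and Gk, the glycerol kinase gene named above, was not counted in this list. The most abundant were Slc36a2, an amino acid transporter of the adipocyte surface (270 ± 67.5 CPM in WT and 315 ± 35.3 in KO fat, SD, n = 5), and Mtus1 (164 ± 29.2 and 170 ± 20.6 CPM). Of 8 beige markers 6 were tested (2 positive, 4 negative, median -0.2). Median levels over the fat libraries were 0.151 CPM for Cited1, 0.222 for Tbx1, 0.934 for Tnfrsf9 and 1.38 for Tmem26. They were 6.46 CPM for Hoxc9, 10.2 for Ear2, 77.7 for Sp100 and 520 for Slc27a1. The most abundant of the 8, the fatty acid transporter Slc27a1, was at 319 to 510 CPM in KO and 529 to 1149 CPM in WT fat. Such ranges without overlap were seen for 1.34% of all genes tested. The ratio of Slc27a1 was 0.596, and its unadjusted p of 0.00455 became 0.687 after adjustment (edgeR). Unadjusted, 7.13% of genes passed 0.05 in fat. Of 23 transcriptional regulators 22 were tested (14 positive, 8 negative, median 0.04), among them Pparg, the master regulator of adipocytes (225 ± 26.5 CPM in WT and 212 ± 24.1 in KO fat). Cebpb, picked out after its values were seen, was at 6.74 to 35.1 CPM in WT and 20.6 to 68.6 CPM in KO fat (ratio 2.86, edgeR adjusted p = 0.687).

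The 15 genes of adrenergic and cAMP signalling were all tested in fat (5 positive, 10 negative, median -0.07). Adrb3, the β3-adrenergic receptor of adipocytes, was at 620 ± 147 CPM in WT and 560 ± 118 CPM in KO fat (SD, n = 5 each), and KO fat 1, lowest for Ucp1, held 753 CPM. The 9 tested of 11 genes of heat cycles that do not use Ucp1 all had positive differences (median 0.32), and 0 had an unadjusted p under 0.05. Atp2a2, the calcium pump, was the most abundant, at 194 ± 22.1 CPM in WT and 244 ± 85.6 CPM in KO fat (SD, n = 5 each). Its highest value (395 CPM), and those of Alpl (48.7 CPM), Ckb (245 CPM), Ryr2 (4.11 CPM) and Pm20d1 (14.9 CPM), were all in KO fat 2, the library with 1748 CPM of bladder-type, 766 CPM of skeletal muscle and 52.7 CPM of cardiac muscle markers. Without KO fat 2, chosen after seeing the data, 7 of the 9 genes were positive and 2 negative, with a median of 0.15. Of 10 secreted factors 7 were tested (3 positive, 4 negative, median -0.24), of 10 respiratory subunits with tissue isoforms 8 (5 positive, 3 negative, median 0.03), and of 10 genes of mitochondrial fatty acid oxidation 10 (2 positive, 8 negative, median -0.06). Of 17 paralogs of the members, 13 were tested (7 positive, 6 negative, median 0.0).

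In liver, 4 of the 10 members passed the filter on low counts and 0 of 4 were called between genotypes, where 0.00752% of 13298 genes were called. Cpt1b was at 3.0, 3.34, 2.83, 5.28 and 4.76 CPM in WT liver 1 to 5 and at 3.53, 1.15, 2.29, 1.84 and 1.81 CPM in KO liver 1 to 5. All KO livers except KO liver 1 were below every WT liver, and the ratio of KO to WT was 0.551 (0.36 to 0.842; edgeR unadjusted p = 0.00914, adjusted p = 0.254). Unadjusted, 13.1% of genes passed 0.05 in liver. The ranges of KO and WT overlapped for all 4 members (those of 2.93% of genes did not). The 2 highest livers were WT liver 4 and WT liver 5, and without them the log2 difference was -0.51 (adjusted p = 0.476) in place of -0.86. Skeletal muscle markers shared the direction of Cpt1b between genotypes in liver: all 11 tested had negative differences (median log2 -2.95, 0 called). The muscle sum was 1.81, 252, 33.5, 416 and 1.05 CPM in WT liver 1 to 5 and 45.6, 20.1, 0.961, 0.599 and 19.0 CPM in KO liver 1 to 5. KO liver 1, the KO liver with the most Cpt1b, also had the highest muscle sum among KO livers, but the order of the other libraries differed. WT liver 5 held 4.76 CPM of Cpt1b with a muscle sum of 1.05 CPM. KO liver 2 held the least Cpt1b (1.15 CPM) with a muscle sum of 20.1 CPM. The part of muscle transcripts in the Cpt1b difference was not tested. Without WT liver 2 and WT liver 4, the difference of Cpt1b was -0.74 (edgeR adjusted p = 0.659). Ppargc1a had a ratio of 1.13 (0.905 to 1.42), Elovl3 of 1.46 (0.655 to 3.27) and Cox7a1 of 0.751 (0.454 to 1.24) in liver (edgeR adjusted p = 0.625, 0.683 and 0.622). Whether genotype acted differently on the 2 tissues was tested as an interaction, which called 0% of 15652 genes (5.36% had an unadjusted p under 0.05). Among the 4 members tested in both tissues it was -1.4 for Elovl3, 0.53 for Cox7a1, 0.62 for Cpt1b and 0.03 for Ppargc1a on the log2 scale (edgeR adjusted p = 0.948, 0.983, 0.982 and 1). The other 6 members did not pass the filter in liver, and their interaction is not read.

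Liver served as the reference for where the members are made. The members Elovl3, Cox7a1, Cpt1b and Ppargc1a passed the low-count filter within each tissue, and 3 of these 4 differed between fat and liver in WT mice (background 74.3% of 14739 genes) and in KO mice (background 74.4% of 14603 genes). Cox7a1 and Cpt1b were higher in fat (background 38.4% in WT and 38.8% in KO) and Ppargc1a was lower (35.9% and 35.6%). The other 6 members, Ucp1, Cidea, Cox8b, Prdm16, Dio2 and Nat8l, passed the filter only through fat, where they were high, so their ratios are a description. The ratios rest on TMM scaling, under which the median log2 difference over all genes was 0.04 in WT and 0.05 in KO. With library totals alone, as in the CPM values printed beside them, the median log2 difference over all genes was 0.98 in WT and 0.95 in KO, and 71.9% and 70.8% of genes were called higher and 15.2% and 14.9% lower. Each CPM contrast is therefore about that much higher than the fitted ratio. Ppargc1a was at 20.8 ± 3.73 CPM in WT liver and 7.98 ± 2.83 CPM in WT fat (SD, n = 5 each); in liver it is known as a coactivator of the fasting response. Its ratio of fat to liver was 0.202 (0.14 to 0.292) in WT and 0.21 (0.166 to 0.265) in KO (edgeR adjusted p = 3.28e-06 and 1.24e-07). Elovl3 stood at 1.46 ± 1.03 CPM in WT liver and 2.17 ± 1.49 CPM in KO liver (SD, n = 5 each), against 4.84 ± 3.57 and 2.75 ± 2.46 CPM in fat. Its fitted ratio was 1.73 (0.643 to 4.68; edgeR adjusted p = 0.288) in WT and 0.669 (0.256 to 1.75; adjusted p = 0.42) in KO. With library totals alone its log2 difference was 1.73 (adjusted p = 0.033) in WT and 0.34 (adjusted p = 0.631) in KO, so neither its call in WT nor its direction in KO held across scalings.

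Nat8l was at 111 CPM or more in every fat library and at most 0.604 CPM in liver. Its ratio of fat to liver was 240 (138 to 416) in WT and 993 (679 to 1453) in KO. These rest on few liver counts, a total of 30 in WT and 8 in KO. The highest WT livers were WT liver 4 (0.604 CPM) and WT liver 5 (0.492 CPM), which held adipocyte transcripts. The size of the ratio is therefore not compared between genotypes. Prdm16 was 7.49-fold (4.99 to 11.2) higher in fat in WT and 11.4-fold (8.12 to 15.9) in KO. Cpt1b and Cox7a1 had smaller ratios and were counted in every liver library. Cpt1b was 5.93-fold (2.84 to 12.4) higher in fat in WT and 9.25-fold (3.45 to 24.8) in KO (edgeR adjusted p = 0.000463 and 0.000968). Cox7a1 was 4.64-fold (2.27 to 9.5) higher in WT and 6.82-fold (3.07 to 15.1) in KO (edgeR adjusted p = 0.00112 and 0.00058).

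Ucp1 had 0 counts in 7 of 10 liver libraries; a count of 0 allows up to 3 counts, or 0.144 CPM in the deepest liver library. The others were KO liver 1 (0.538 CPM, 11 counts), WT liver 4 (2.01 CPM, 30 counts) and WT liver 5 (4.0 CPM, 65 counts). Ratios of fat to liver therefore depend on these libraries. In WT the ratio of Ucp1 was 65.8 (15.1 to 287), or 6.04 on the log2 scale, and 7.36 without WT liver 5. The log2 value for Cidea was 6.44, and 10.16 without WT liver 5, and for Dio2 4.73, 7.49 without WT liver 5 and 4.09 without WT fat 5. Cox8b gave 5.09, and 5.72 without WT liver 4. In KO, Ucp1 totalled 11011 counts in fat and 11 in liver, all in KO liver 1, Cidea 4658 and 6, Cox8b 2863 and 2, and Dio2 346 and 2. Leaving out KO liver 1 moved the log2 ratio of Cidea from 9.09 to 11.34, of Cox8b from 9.99 to 10.65 and of Dio2 from 6.93 to 7.59, and left Ucp1 at 0 in every remaining KO liver. Without KO liver 2 Cox8b was at 10.68 and Dio2 at 7.62, and without KO fat 3 Ucp1 was at 8.88 in place of 9.47.

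Levels were set against each other per length, as CPM per kilobase of exon, with all annotated exons of a gene merged. Such a length can exceed that of a single transcript, and the order of genes depends on it. Over the 10 fat libraries Cox8b was highest at 111 ± 58.1 CPM per kb (SD, n = 10), then Ucp1 at 94.7 ± 71.7, Cidea at 60.6 ± 43.3, Cox7a1 at 29.3 ± 16.6, Nat8l at 24.6 ± 6.33 and Cpt1b at 12.1 ± 7.63. Elovl3 (1.92 ± 1.57), Dio2 (1.35 ± 1.26), Ppargc1a (1.32 ± 0.337) and Prdm16 (0.953 ± 0.141) formed a low group. The ranges of neighbours in this order overlapped in every case. Dio2 shares exon bases with a gene on the opposite strand, as do Elovl3 and Prdm16, and Cpt1b with a gene on its own strand, and the sources used here do not say whether the counting used strand.

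Most members belong to small gene families, and the share of a family's CPM per kb that the member took ranged widely. Ucp1 made up a median 67.7% of Ucp1, Ucp2 and Ucp3 in fat, but 4.35% in KO fat 1 and 79.0% at most, and Ucp2 made up a median 23.3%. Ucp2 was divided by 6989 exon bases and Ucp1 by 1636. In CPM without length, Ucp2 had the higher median in fat (184 against 157), so the lead of Ucp1 rests on the lengths used. Cidea was a minor form, at a median 3.98% beside 96.0% for Cidec, the lipid droplet protein of white adipocytes, while liver held Cideb (median 99.4%). Cox8b took a median 18.1% (3.14 to 30.3%) beside the ubiquitous Cox8a, and Cox7a1 12.8% beside Cox7a2 (56.5%) and Cox7a2l (32.6%). Cpt1b took a median 43.9% (8.96 to 56.8%) in fat, close to the 51.6% of Cpt1a, the form that liver used at a median 99.0%. In CPM without length the medians in fat were 44.3 for Cpt1b and 103 for Cpt1a, over 3372 and 7642 exon bases. For deiodinases fat held Dio2 (median 57.8%) at a low level and liver Dio1 (median 99.9%). Ppargc1a was 39.0% of itself and Ppargc1b in fat and 62.4% in liver. As an example of the spread, Cox8a ranged from 383 to 593 CPM per kb over the fat libraries while Cox8b ranged from 18.4 to 197.

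**Figure D5:**
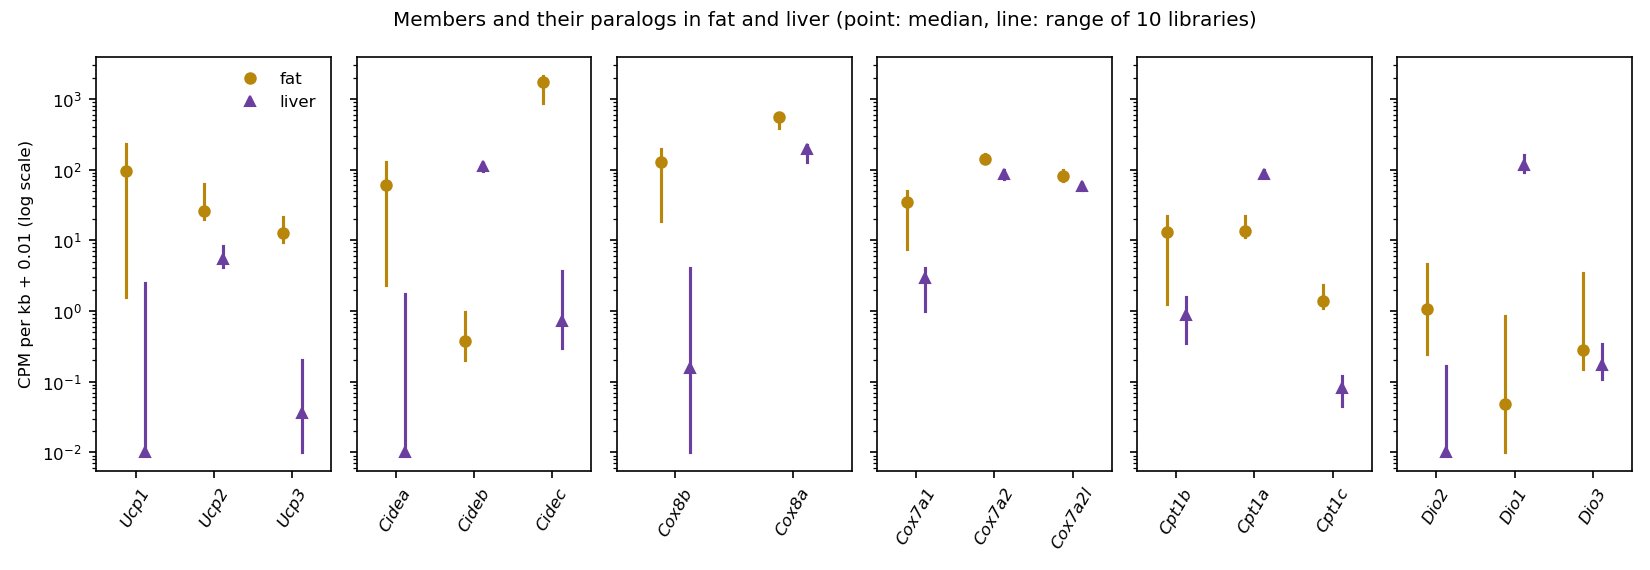
CPM per kb of exon plus 0.01 (log scale) of 6 members and their paralogs in fat (circles) and liver (triangles); points are medians and lines the range of 10 libraries. Cox8b spans 18.4 to 197 CPM per kb in fat and Cox8a 383 to 593, and Cidea lies below Cidec in fat.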

How the data were processed

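RNA was sequenced from fat and liver by the authors with a TruSeq kit that keeps strand, after Qiagen RNeasy extraction (labels' protocols). The table the authors deposited holds expected counts, not normalized, with 1 column per library. RSEM 1.2.12, STAR 2.4.0d, Trim Galore 0.2.8 and DESeq2 appear in the submitters' processing notes, with build GRCm38 and no stated order. The annotation release was not stated. Symbols and lengths came from GENCODE M21 (48058 of 48440 genes matched), promoter windows from RefSeq.

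Counts were rounded, filtered with filterByExpr (minimum count 10, minimum total 15), scaled by TMM and tested with edgeR 4.0.16 (robust quasi-likelihood, R 4.3.3), with Benjamini-Hochberg adjustment over all genes tested and a threshold of 0.05. The interaction used all 20 libraries. Relations used log2 CPM (prior count 2), 100000 permutations and two-sided tests. Pairs of libraries within a group differed by more than counting error, so none was counted as a duplicate. The fits were tested on simulated counts.

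The members and lists were chosen with earlier results of these data known. Named genes are the members, Prkce, paralogs, up to 4 of the most abundant genes of a list and the 5 genes nearest to a member. Zic1, Lhx8, Ebf2, Cebpb, Cited1, Tbx1, Tnfrsf9, Tmem26, Wfdc2, Krt18, Krt8, Cdh1, Pax8, Ovgp1, Adipoq and Alb were named after their values were seen. Alternatives were other scalings, filters and fits (limma 3.58.1 with voom, DESeq2 1.42.0), the replicate number as a block and libraries left out; leaving out WT liver 4 and 5, WT liver 2 and 4, or KO fat 2 (lists), and library totals without scaling factors, were chosen after seeing the data.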

Additional observations from a re-analysis of the deposited data

Results flagged for a closer look

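Cidea and Dio2 each had a single high library in WT liver. Cidea was at 1.91 CPM in WT liver 5 and at most 0.134 CPM in the other 4 WT livers, and Dio2 was at 0.923 CPM in WT liver 5 and at most 0.134 CPM in the other 4. In each case the gap to the next library took up more of the group's range than Dixon's critical value of 0.71 for 5 libraries allows. Of 35 groups looked at, these 2 passed that value. Chance alone gives about 1 in 20, so this number is near what chance gives. Both are in WT liver 5, which held adipocyte transcripts, so they are not separate observations.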

How the results depend on the processing

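Between genotypes no member was called in fat, and none of Elovl3, Cox7a1, Cpt1b and Ppargc1a, the members tested there, in liver or for the interaction, under the alternatives run. Cox7a1 and Cpt1b kept their calls as higher, and Ppargc1a as lower, in fat than in liver, also with the replicate block. Elovl3 between tissues was at 1.734 in WT (adjusted p = 0.033) and turned to 0.339 in KO with library totals alone. In fat by edgeR 0 genes were called, 1048 at an unadjusted p under 0.05, 13 by DESeq2, and 0 to 0 with single libraries left out. In liver the 1 call became 137 by DESeq2, 3 by limma-voom, 15 with no filter, 2 with all 20 libraries in the fit, 3 with the replicate block, 11 without WT liver 4 and 5, 3 without WT liver 2 and 4, and 0 to 3 with single libraries left out (0 without WT liver 3 or WT liver 5). The interaction gave 0 calls, 2 by DESeq2. Uncalled log2 differences in fat changed sign for Prdm16 (-0.004 with upper-quartile scaling), for Ucp1, Cox8b and Prdm16 with limma-voom (-0.654, -0.032 and -0.015), for Ucp1 and Cox8b with the replicate block (-0.314 and -0.016), and for Cidea and Nat8l without KO fat 2 and WT fat 2 (0.141 and 0.099). With single libraries left out they ranged from -0.512 to 0.378 for Ucp1, -0.497 to 0.251 for Cidea, -0.17 to 0.36 for Cox8b, -0.117 to 0.373 for Cox7a1, -0.509 to 0.051 for Cpt1b, -0.042 to 0.103 for Prdm16 and -0.226 to 0.053 for Nat8l, and the interaction of Ppargc1a from -0.117 to 0.189 (-0.131 without WT liver 4 and 5). Between same-numbered KO and WT fat libraries, deviations correlated at 0.396, 0.141, 0.481, -0.207 and -0.049, and 2 of 5 correlated best with their own number, so the numbers were not taken to pair them. For relations, Elovl3 with Ucp1 fell to r = 0.773 without 2 libraries (permutation adjusted p = 0.106), and Cpt1b with muscle markers had rho = 0.758 (permutation adjusted p = 0.0466). Prdm16 with Ucp1 turned to -0.055 as rho and -0.214 without KO fat 2 and WT fat 2. With muscle markers Nat8l turned to -0.097 without 2 libraries, and without KO fat 2 and WT fat 2 Nat8l was at -0.294, Ppargc1a at -0.134 and Prdm16 at -0.114. The causes were not tested.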

Other observations

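In the liver libraries that held Ucp1, its counts were high beside those of adipocyte genes. These libraries were picked for holding Ucp1, which by itself favours a high share. Of the counts of Ucp1 and Adipoq together, Ucp1 made up 32.3% in WT liver 4 (30 against 63 counts; exact Clopper-Pearson 95% interval 22.9 to 42.7%) and 47.4% in WT liver 5 (65 against 72; 38.9 to 56.1%). In KO liver 1 it was 61.1% (11 against 7; 35.7 to 82.7%). The same share was 0.0845% to 11.7% over the 10 fat libraries, with a median of 5.57%. KO liver 4, with 17 counts of Adipoq, had 0 of Ucp1, which allows a share of up to 19.5%. With Plin1, the coat protein of adipocyte lipid droplets, in place of Adipoq, the share was 41.1% in WT liver 4 and 57.5% in WT liver 5, and at most 22.8% in fat. With Cfd, the adipocyte protease adipsin, it was 14.2% and 30.1% in those livers and at most 7.62% in fat. WT liver 2, with 35 counts of Cfd, had 0 of Ucp1, which allows a share of up to 10%. Cidea took 30.1% of the counts of Cidea and Adipoq in WT liver 5 (31 against 72; 21.5 to 39.9%) and 3.08% in WT liver 4 (2 against 63; 0.375 to 10.7%), against at most 4.67% in fat. The intervals cover counting error only, and the source of these transcripts was not tested.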
